A study of Mus musculus with 15 samples.

Results

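The transient receptor potential (TRP) channel genes described here are Trpc4, Trpm1, Trpm6, Trpm2, Trpm4, Trpm7, Trpv2, Trpv4, Trpc1 and Trpc6, which are 10 of the 36528 gene models in the deposited tables. They were taken by name and matched to NCBI Gene IDs, and all 10 were found. The list was chosen with the comparison of PS2APP and non-Tg microglia already known, so for these 10 genes the difference between the genotypes is given as a description, with no test. The RNA came from Cx3cr1::GFP+ microglia sorted from mouse cortex, and 9 libraries were from PS2APP mice and 6 from non-Tg (wild type) mice. At 14 months there were 4 PS2APP and 2 non-Tg libraries, and at 15 months there were 5 PS2APP and 4 non-Tg libraries. PS2APP mice carry mutant human presenilin 2 and amyloid precursor protein transgenes and form amyloid plaques. Every group carried the Cx3cr1::GFP reporter, in which fluorescent protein marks cells with an active Cx3cr1 gene. The labels used here give neither the promoters of the transgenes, nor the number of reporter copies, nor the sex of the mice. Nor do they state that every library came from its own mouse, and the p-values therefore reflect only how these libraries vary.

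TRP channels are cation channels of the plasma membrane and of organelles, built from several subunits around a central pore. The canonical (Trpc) members open downstream of receptors that activate phospholipase C, the melastatin (Trpm) members respond to signals such as intracellular calcium, ADP-ribose and magnesium, and the vanilloid (Trpv) members respond to heat, osmotic or mechanical stimuli. In microglia and macrophages they are studied for calcium entry, membrane potential, magnesium balance, phagocytosis and responses to oxidative stress.

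The libraries held 3664742 to 8455237 counted reads, with a median of 5867848. Across all genes, edgeR's quasi-likelihood test with age in the model called 165 of 13994 tested genes for genotype at an adjusted p under 0.05, which is 1.18%, with 134 higher and 31 lower in PS2APP. The microglia markers dominated every library, with a summed level of 26000 to 38400 CPM (reads scaled to library size) in PS2APP and 32400 to 43400 CPM in non-Tg, and all 10 of these markers were detected. The 12 neuron markers summed to 77.5 to 421 CPM in PS2APP and 354 to 627 CPM in non-Tg, and Slc17a7 and Gad2 were called lower. The 10 choroid plexus markers summed to 14.3 to 34.7 CPM in PS2APP and 10.5 to 432 CPM in non-Tg, and Ttr and Enpp2 were called lower. The 8 astrocyte markers summed to 319 to 623 CPM in PS2APP and 455 to 1090 CPM in non-Tg, with Gfap called higher and Slc1a2 lower. The 8 endothelial markers summed to 45.3 to 75.1 CPM in PS2APP and 55.9 to 104 CPM in non-Tg, with Flt1 called higher and Pecam1 lower. No oligodendrocyte or mural cell marker was called. Of other cells a Cx3cr1 gate could hold, border macrophage markers summed to 74.2 to 262 CPM in PS2APP and 40.4 to 236 CPM in non-Tg, monocyte and neutrophil markers to 26.1 to 48.1 CPM in PS2APP and 17.0 to 105 CPM in non-Tg, and lymphocyte markers stayed at or below 2.05 CPM in PS2APP and 6.47 CPM in non-Tg. Immediate early genes stood apart in PS2APP libraries 1 and 4 and non-Tg libraries 9 and 13, with summed levels over 11 genes up to 2710 CPM in PS2APP and up to 14000 CPM in non-Tg. Xist was at 16.7 to 47.0 CPM in PS2APP library 14 and non-Tg libraries 12 and 13, and at 3680 to 7220 CPM in the other libraries. In these bulk samples, fewer cells of a type and less RNA per cell cannot be told apart.

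The 10 genes fell into 3 groups. Trpc4, Trpm1 and Trpm6 had reads in every PS2APP library and almost none in non-Tg libraries. Trpm7, Trpv2, Trpm2, Trpm4 and Trpv4 were read in all 15 libraries at overlapping levels. Trpc1 and Trpc6 were so low that they did not pass the filter on low counts. Of the 8 members tested, 3 were called higher in PS2APP and 0 lower, beside 0.958% of all tested genes called higher. The PS2APP and non-Tg values did not overlap for the same 3 genes, beside 0.572% of all tested genes that lay higher in PS2APP without overlap. Since the list was selected on this contrast, nothing is read from these shares. The median log2 fold change of the 8 tested members was 0.13, and that of all tested genes was -0.02.

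**Figure D1:**
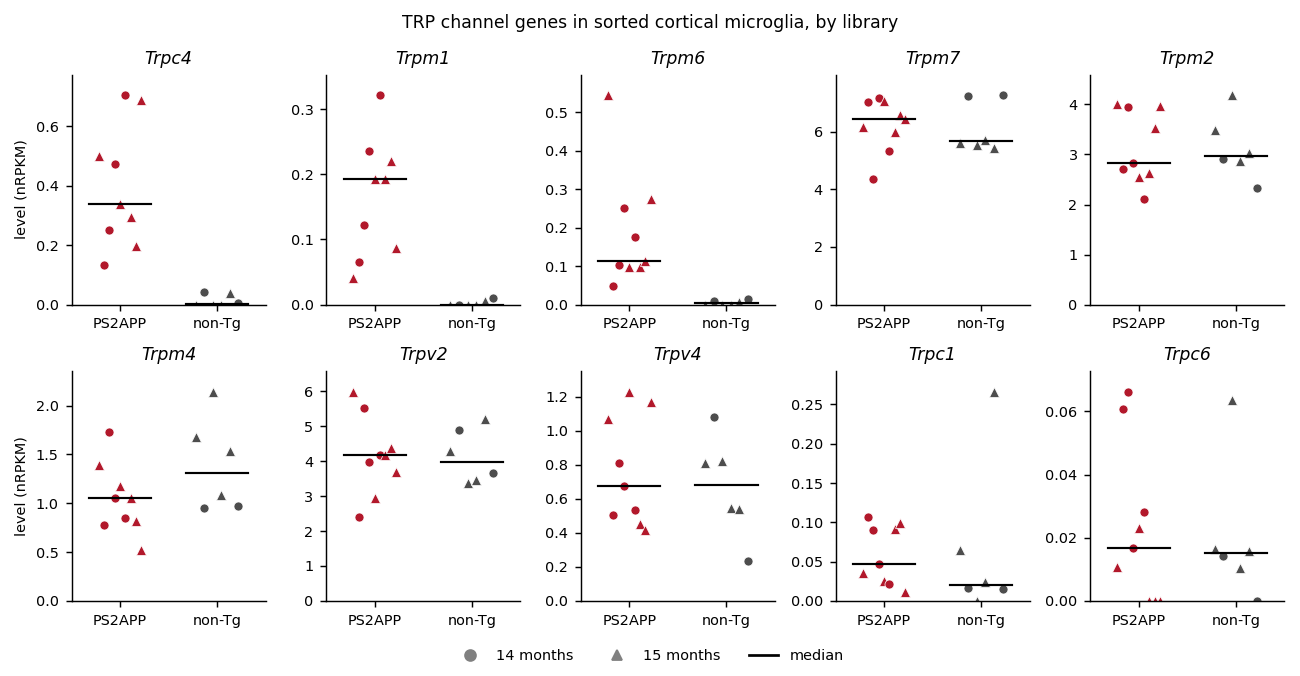
Level of each of the 10 TRP channel genes in each library, in nRPKM (y axis, linear, each panel with its own scale), with PS2APP in red and non-Tg in gray, 14 months as circles, 15 months as triangles and the group median as a bar. Trpc4 is at 0.134 nRPKM or more in PS2APP and at most 0.0412 nRPKM in non-Tg, Trpm1 and Trpm6 are likewise separated, and the other 7 genes overlap between the genotypes.

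Trpc4 encodes a receptor-operated, calcium-permeable channel subunit that opens downstream of G protein-coupled receptors. The gene lies on the plus strand at chr3:54155584-54318471 in GRCm38. In PS2APP it had 16, 35, 58 and 77 reads in the 14-month libraries (3, 4, 6 and 8) and 48, 30, 37, 16 and 68 reads in the 15-month libraries (1, 7, 10, 14 and 15). In non-Tg it had 3 and 1 reads in the 14-month libraries (5 and 13) and 0, 0, 0 and 5 reads in the 15-month libraries (2, 9, 11 and 12). The lowest PS2APP count was thus above the highest non-Tg count. On the authors' length-scaled nRPKM scale, its level averaged 0.397 ± 0.206 in PS2APP (SD, n = 9) and 0.0144 ± 0.0199 in non-Tg (SD, n = 6). The fitted log2 fold change, PS2APP over non-Tg, was 4.82 ± 0.76 (SE), or 28.3-fold. The ratio of summed reads per total read was 32.9, with an exact 95% interval of 17.2 to 72.5 that covers counting error only.

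Trpm1 encodes the cation channel at the end of the glutamate signalling cascade of retinal ON bipolar cells and is also expressed by melanocytes. The gene lies on the plus strand at chr7:64153835-64269772. In PS2APP it had 10, 22, 37 and 45 reads in the 14-month libraries and 5, 22, 31, 23 and 11 reads in the 15-month libraries, in the library order given for Trpc4. In non-Tg it had 0 and 2 reads in the 14-month libraries and 0, 0, 0 and 1 reads in the 15-month libraries. PS2APP library 1, with 5 reads, came nearest to the non-Tg counts. The level averaged 0.164 ± 0.0916 nRPKM in PS2APP (SD, n = 9) and 0.0027 ± 0.00438 nRPKM in non-Tg (SD, n = 6). The fitted log2 fold change was 5.37 ± 0.80 (SE), and the ratio of 206 summed PS2APP reads to 3 summed non-Tg reads, per total read, was 52.8 with a 95% counting interval of 17.8 to 258.

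Trpm6 encodes a magnesium- and calcium-permeable channel fused to a protein kinase, known for magnesium uptake in kidney and intestine. The gene lies on the plus strand at chr19:18730177-18892521. In PS2APP it had 8, 20, 43 and 27 reads in the 14-month libraries and 73, 12, 17, 13 and 38 reads in the 15-month libraries. In non-Tg it had 1 and 3 reads in the 14-month libraries and 0, 0, 0 and 1 reads in the 15-month libraries. All 9 PS2APP counts were above all 6 non-Tg counts, and PS2APP library 1 was the highest. The level averaged 0.189 ± 0.153 nRPKM in PS2APP (SD, n = 9) and 0.00489 ± 0.00598 nRPKM in non-Tg (SD, n = 6). The fitted log2 fold change was 5.08 ± 0.83 (SE), and the ratio of summed reads per total read was 38.6, with a 95% counting interval of 16.3 to 120.

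The non-Tg libraries 2, 9 and 11 held no read of Trpc4, Trpm1 or Trpm6, and the 17 non-Tg reads of these genes all came from libraries 5, 12 and 13. A count of 0 still allows up to 3 reads, which is 0.355 to 0.819 CPM of the total count in the non-Tg libraries. Ranked by log2 fold change among the 13994 tested genes, Trpm1 was at position 9, Trpm6 at 10 and Trpc4 at 14. The list was chosen on this contrast, and these genes passed the filter on low counts through their PS2APP reads. Nothing is therefore read from these positions. Fold sizes on so few non-Tg reads moved with single libraries. Trpc4 went to a log2 fold change of 5.64 without non-Tg library 12, and Trpm1 to 6.13 and Trpm6 to 5.89 without non-Tg library 13. Without the 3 libraries low in Xist the log2 fold changes were 5.60 for Trpc4, 7.33 for Trpm1 and 6.41 for Trpm6. With the neuron marker score as a covariate they were 3.90 ± 1.03 for Trpc4, 4.83 ± 1.02 for Trpm1 and 3.88 ± 1.12 for Trpm6 (SE). Leaving out the 4 libraries in which immediate early genes stood apart gave 4.26 for Trpc4, 6.08 for Trpm1 and 5.10 for Trpm6.

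The promoter windows of these 3 genes are shown because the genes share their low level in non-Tg and their higher level in PS2APP. The windows run from 250 bases before to 50 after a start listed by RefSeq on GRCm38.p6, on the plus strand, written 5′ to 3′ as 300 bases. The table used lists 1 start for Trpc4 and 1 for Trpm6, both downstream of the first base of the gene span given above, and that first base has no window here. Capitals mark CACGTG or CATGTG, searched on both strands, so that CACATG is CATGTG read on the other strand. These are E-box letters that transcription factors of the MITF family are known to bind. CACGTG was present in 7.15% and CATGTG in 14.2% of 32851 promoter windows of the same length. The letters GAGGAA and TGANTCA, searched on both strands, were present in 28.3% and 7.81% of all windows and in none of the 4 windows below. A match is a description of the letters, not a site, and no match says only that the letters are not in the window.
Trpc4, chr3:54155807-54156106: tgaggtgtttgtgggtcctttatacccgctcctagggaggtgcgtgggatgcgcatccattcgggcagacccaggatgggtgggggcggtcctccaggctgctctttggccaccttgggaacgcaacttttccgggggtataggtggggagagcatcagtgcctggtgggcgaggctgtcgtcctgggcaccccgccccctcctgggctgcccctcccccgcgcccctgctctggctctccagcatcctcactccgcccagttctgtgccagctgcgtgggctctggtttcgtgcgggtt
Trpm1 first start, chr7:64153585-64153884: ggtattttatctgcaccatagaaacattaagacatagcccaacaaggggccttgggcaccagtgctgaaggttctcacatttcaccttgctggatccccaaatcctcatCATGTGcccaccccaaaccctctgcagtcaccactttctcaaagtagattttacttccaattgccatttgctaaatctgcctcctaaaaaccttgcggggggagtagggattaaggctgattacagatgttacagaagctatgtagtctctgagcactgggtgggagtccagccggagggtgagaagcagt
Trpm1 second start, chr7:64185209-64185508: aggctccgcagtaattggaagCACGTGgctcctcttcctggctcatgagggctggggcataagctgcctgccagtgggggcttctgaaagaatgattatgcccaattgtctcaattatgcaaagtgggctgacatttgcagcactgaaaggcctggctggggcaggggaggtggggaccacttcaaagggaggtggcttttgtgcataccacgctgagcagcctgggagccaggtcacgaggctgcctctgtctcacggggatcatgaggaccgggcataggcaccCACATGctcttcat
Trpm6, chr19:18749480-18749779: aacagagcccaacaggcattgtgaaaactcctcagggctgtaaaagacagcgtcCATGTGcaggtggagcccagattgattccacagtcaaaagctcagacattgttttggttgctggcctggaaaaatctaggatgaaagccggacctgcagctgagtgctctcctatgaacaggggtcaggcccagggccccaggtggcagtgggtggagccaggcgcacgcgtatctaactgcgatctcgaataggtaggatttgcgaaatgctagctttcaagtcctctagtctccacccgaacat
The Trpc4 window held no capitals, the first Trpm1 window and the Trpm6 window held 1 CATGTG each, and the second Trpm1 window held 1 CACGTG and 1 CATGTG, with CATGTG written as CACATG. Of the members at overlapping levels, the Trpm7 window held 2 CACGTG and the Trpm2 window 1 CATGTG. The windows of Trpv2, Trpv4, Trpc1 and Trpc6 held neither, and Trpm4 had no window. The letters were thus not particular to the 3 genes higher in PS2APP.

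Trpm1 also hosts a microRNA gene, Mir211, whose hairpin at chr7:64205806-64205911 lies on the same strand in intron 6 of an annotated Trpm1 transcript, between exon 6 (64204422 to 64204593) and exon 7 (64208276 to 64208450). Its mature 5p product is shown because it is read from the same transcription unit, with the seed (bases 2 to 8) in capitals, from RefSeq.
mmu-miR-211-5p: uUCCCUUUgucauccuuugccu
The gene model of Mir211 had 23 reads in PS2APP, in 6 of 9 libraries, and 0 reads in the 6 non-Tg libraries. By library, PS2APP had 1, 1, 3 and 7 reads at 14 months and 0, 0, 1, 10 and 0 reads at 15 months, in the library order given for Trpc4. Library 14, with 10 reads of Mir211, had 23 reads of Trpm1, and library 8, with 7, had 45. These reads come from RNA libraries in which the hairpin and unspliced Trpm1 cannot be told apart, and they do not measure the mature microRNA. The gene was chosen after its values were seen.

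Trpm7, Trpv2 and Trpm2 were the most abundant of the 10 genes in both genotypes. Trpm7, the broadly expressed magnesium, zinc and calcium channel with its own kinase domain, is on the minus strand at chr2:126791558-126876261. Its level ran from 4.36 over a median of 6.44 to 7.18 nRPKM in PS2APP and from 5.44 over 5.67 to 7.26 nRPKM in non-Tg. The log2 fold change, PS2APP over non-Tg, was 0.02 ± 0.14 (SE), and the ranges overlapped almost wholly. At 14 months the 4 PS2APP libraries, at 4.36 to 7.18 nRPKM, lay below the 2 non-Tg libraries, at 7.24 and 7.26 nRPKM. At 15 months the 5 PS2APP libraries, at 6.0 to 7.05 nRPKM, lay above the 4 non-Tg libraries, at 5.44 to 5.73 nRPKM. The interaction of genotype and age was 0.48 ± 0.28 on the log2 scale (SE). The share of all tested genes that separate in this way within each age was not counted. With so few libraries at each age, no reversal with age is read from these values.

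Trpv2, a vanilloid channel known for its role in macrophage phagocytosis, is on the plus strand at chr11:62574486-62600305. Its level ran from 2.41 over a median of 4.17 to 5.98 nRPKM in PS2APP and from 3.36 over 3.97 to 5.2 nRPKM in non-Tg, and the log2 fold change was 0.01 ± 0.20 (SE). Trpm2, the ADP-ribose-gated calcium channel that opens under oxidative stress, is on the minus strand at chr10:77907722-77969909. It ran from 2.12 over a median of 2.83 to 4.01 nRPKM in PS2APP and from 2.33 over 2.97 to 4.18 nRPKM in non-Tg, with a log2 fold change of 0.04 ± 0.17 (SE). Trpv2 averaged 4.14 ± 1.12 nRPKM in PS2APP and 4.14 ± 0.775 nRPKM in non-Tg, and Trpm2 averaged 3.14 ± 0.721 nRPKM in PS2APP and 3.13 ± 0.632 nRPKM in non-Tg (SD, n = 9 and 6).

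Trpm4, the calcium-activated channel that carries monovalent cations and depolarises the membrane, is on the minus strand at chr7:45303155-45334071. Its level ran from 0.518 over a median of 1.05 to 1.73 nRPKM in PS2APP and from 0.95 over 1.31 to 2.14 nRPKM in non-Tg. The log2 fold change was -0.38 ± 0.28 (SE), and 7 of 9 PS2APP libraries lay below the non-Tg median. It was 0.24 ± 0.38 at 14 months alone, -0.71 ± 0.35 at 15 months alone and 0.14 ± 0.41 with the neuron marker score as a covariate (SE), so its sign was not constant. The pseudogene Rpl14-ps1, with 3257 reads, overlaps Trpm4 on the other strand, and the strand used in counting is not given in the sources used here. Trpv4, a channel opened by osmotic, mechanical and warm stimuli, is on the minus strand at chr5:114622152-114658435. It ran from 0.419 over a median of 0.676 to 1.23 nRPKM in PS2APP and from 0.233 over 0.680 to 1.08 nRPKM in non-Tg, with a log2 fold change of 0.21 ± 0.36 (SE).

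Trpc1, a subunit of receptor- and store-operated channels, lies at chr9:95705072-95750386 on the minus strand and had 52 reads in PS2APP and 42 in non-Tg. Library 12 alone gave 30 of the 42 non-Tg reads. Trpc6, a channel subunit opened by diacylglycerol, lies at chr9:8543867-8680752 on the plus strand and had 24 reads in PS2APP and 16 in non-Tg, of which library 9 gave 10. The ratio of summed reads per total read was 0.953 for Trpc1 (95% counting interval 0.622 to 1.47) and 1.15 for Trpc6 (0.588 to 2.33). Each ratio hung on 1 non-Tg library. Without library 12 the ratio for Trpc1 was 2.81 (52 against 12 reads, 95% counting interval 1.48 to 5.78), and without library 9 that for Trpc6 was 2.42 (24 against 6 reads, 0.964 to 7.24), values added after the data were seen. Fitted at 14 months alone, Trpc1 had a log2 fold change of 2.08 ± 1.16 (SE). No direction is read from these counts. The locus Gm32014, with 48 reads, overlaps Trpc6 on the other strand.

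In order of median nRPKM the PS2APP libraries had Trpm7, Trpv2, Trpm2, Trpm4, Trpv4, Trpc4, Trpm1, Trpm6, Trpc1 and Trpc6. The ranges of neighbours in this order overlapped, except between Trpm2 and Trpm4. In non-Tg the first 5 were in the same order, followed by Trpc1, Trpc6, Trpc4, Trpm6 and Trpm1. There the ranges did not overlap between Trpm7 and Trpv2 and between Trpm2 and Trpm4. Trpc4, Trpm1 and Trpm6 were therefore the 3 lowest of the 10 genes in non-Tg and lay above Trpc1 and Trpc6 in PS2APP. Even there they stayed low per length, since the PS2APP median of Trpc4 was 0.338 nRPKM, that of Trpm1 0.193 nRPKM and that of Trpm6 0.114 nRPKM, against 6.44 nRPKM for Trpm7.

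Within PS2APP the 3 genes had a larger relative spread than Trpm7, Trpm2, Trpv2, Trpm4 and Trpv4. The coefficient of variation of the level in CPM over the 9 libraries was 52.0% for Trpc4, 56.1% for Trpm1 and 81.2% for Trpm6, where counting error alone gives 15.3%, 20.9% and 18.9%. It was 14.6% for Trpm7, 22.9% for Trpm2, 27.3% for Trpv2, 34.6% for Trpm4 and 41.5% for Trpv4. Counting error alone gives 3.33%, 4.51%, 5.98%, 10.1% and 14.1% for these. A spread beyond counting error was thus not particular to the 3 genes. Libraries 8 and 15 were highest in Trpc4, at 0.703 and 0.688 nRPKM, and library 3 was lowest, at 0.134 nRPKM. Library 1 was highest in Trpm6, at 0.543 nRPKM, and lowest in Trpm1, at 0.0405 nRPKM. Among the 28 pairs of the 8 tested members, Trpc4 and Trpm6 had the highest Pearson r over the 9 PS2APP libraries, at 0.78 (exact permutation p = 0.0123, adjusted p = 0.343) with a Spearman rho of 0.72 (exact permutation p = 0.0369, adjusted p = 0.678). The r was 0.77 without the 2 libraries farthest from the median of Trpc4, 0.90 over the 4 libraries of 14 months and 0.73 over the 5 of 15 months. No pair had an adjusted p under 0.05. Trpm1 and Trpc4 had an r of 0.15 (exact permutation p = 0.704, adjusted p = 0.974) and a rho of 0.20 (exact permutation p = 0.613, adjusted p = 1.0), and Trpm1 and Trpm6 an r of -0.25 (exact permutation p = 0.517, adjusted p = 0.974) and a rho of -0.02 (exact permutation p = 0.982, adjusted p = 1.0). The r of Trpm1 and Trpm6 was 0.92 at 14 months and -0.99 at 15 months, and that of Trpc4 and Trpm1 was 1.0 and -0.78 at these ages. The values within an age rest on 4 and 5 libraries and were not tested. At 15 months libraries 7, 10 and 14 lay close together, at 4.99 to 5.73 CPM of Trpm1 and 2.72 to 3.24 CPM of Trpm6. Nothing is read from the change of sign.

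**Figure D2:**
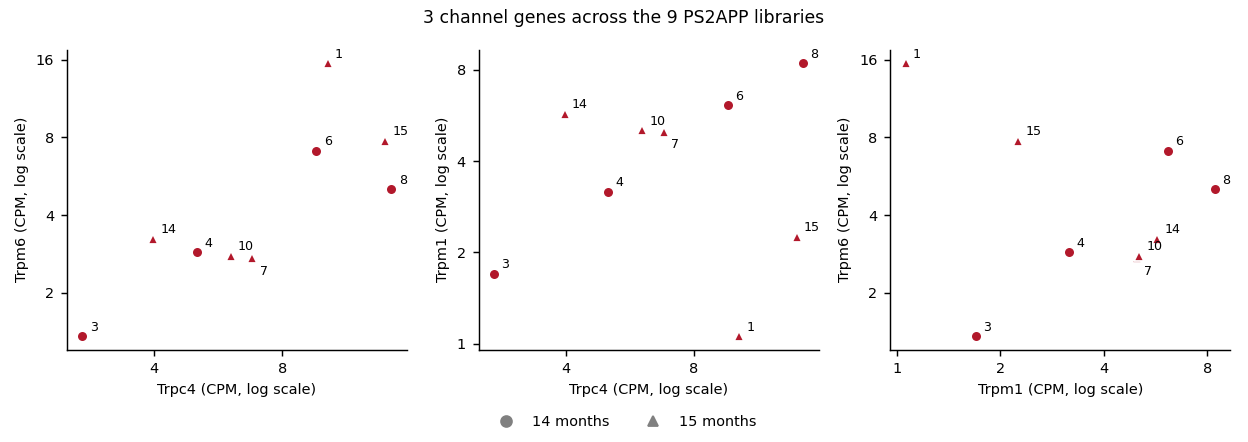
Level of Trpc4, Trpm1 and Trpm6 against each other in the 9 PS2APP libraries, in CPM on log axes, with library numbers beside the points, circles for 14 months and triangles for 15 months. Trpc4 and Trpm6 have an r of 0.78 (not past the threshold after adjustment), and library 1 lies apart with 73 reads of Trpm6 and 5 reads of Trpm1.

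For each member with enough reads in PS2APP, the genes with the most similar pattern over the 9 PS2APP libraries were sought among 12198 tested genes (12199 for Trpm1 and Trpm6), by Pearson r of log2 CPM, as a description. They were Dapk3 (r = 0.92) and Ptdss1 (0.91) for Trpc4, Stx6 (0.96), Kti12 (0.95) and Il4i1b (0.94) for Trpm1, and Fasn, Slc39a4 and Cad (0.93 each) for Trpm6. A gene model without a symbol came next for Trpc4, at 0.90. For the abundant members they were Hivep3 (0.98), Ppp1r9b and Wnk1 (0.97 each) for Trpm2, Fez2, Hk2 and Gm38632 (0.95 each) for Trpm4, and Srp72 (0.97), Gm32584 (0.94) and Zranb2 (0.93) for Trpm7. For Trpv2 they included Map3k11 (0.97) and Adam15 (0.95), and for Trpv4 they were Pabpc4 (0.98), Pitrm1 (0.94) and Fkbp5 (0.93). Without the 2 libraries farthest from the median of Trpm7, its r was 0.75 with Srp72, 0.55 with Gm32584 and 0.81 with Zranb2. By the same check the r stayed at 0.98 for Hivep3 with Trpm2 and for Pabpc4 with Trpv4. Wnk1 and Trpm2 had a Spearman rho of 0.73. The 9 libraries share depth and composition effects, and a maximum over so many genes is high by selection. No gene was named for more than 1 member.

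Age was not used in choosing the members and was tested, as 15 over 14 months with genotype in the model. None of the 8 tested members was called, and 0% of all tested genes were. Their edgeR adjusted p-values were 0.724 to 0.995, and 0 of 8 had an unadjusted p under 0.05, where 1112 of all 13994 genes did. DESeq2 called 12 genes for age. The log2 fold change of the members, 15 over 14 months, was -0.17 ± 0.61 for Trpc4, -0.53 ± 0.62 for Trpm1, 0.05 ± 1.2 for Trpm6 and 0.27 ± 0.17 for Trpm2 (SE). In PS2APP, Trpc4 averaged 0.390 ± 0.251 nRPKM at 14 months and 0.403 ± 0.193 nRPKM at 15 months, and Trpm1 averaged 0.186 ± 0.114 and 0.147 ± 0.0784 nRPKM at these ages (SD, n = 4 and 5). Trpm6 averaged 0.144 ± 0.0883 nRPKM at 14 months and 0.225 ± 0.193 nRPKM at 15 months (SD, n = 4 and 5), and library 1 carried the highest value.

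The interaction of genotype and age, the difference between the PS2APP over non-Tg changes at 15 and 14 months, was called for 0% of the tested genes by edgeR. Unadjusted, 1038 of all genes had a p under 0.05, and DESeq2 called 6 genes. For the members it is built from the contrast on which they were selected, so it is described without a test. Trpm6 had the value farthest from 0 among the 8 tested members, at 3.23 ± 1.52 on the log2 scale (SE). It was 4.68 without non-Tg library 12 and 1.78 without the 4 libraries in which immediate early genes stood apart. The Trpm6 log2 fold change, PS2APP over non-Tg, was 3.50 ± 0.98 at 14 months alone and 6.68 ± 1.15 at 15 months alone (SE), on non-Tg counts of 1 and 3 reads at 14 months and 0, 0, 0 and 1 reads at 15 months. On simulated data of this design the interaction test found 32% of 4-fold and 2% of 2-fold changes, with 8.11% of its calls false. The changed genes were drawn from all tested genes, not from genes as low as Trpm6.

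**Figure D3:**
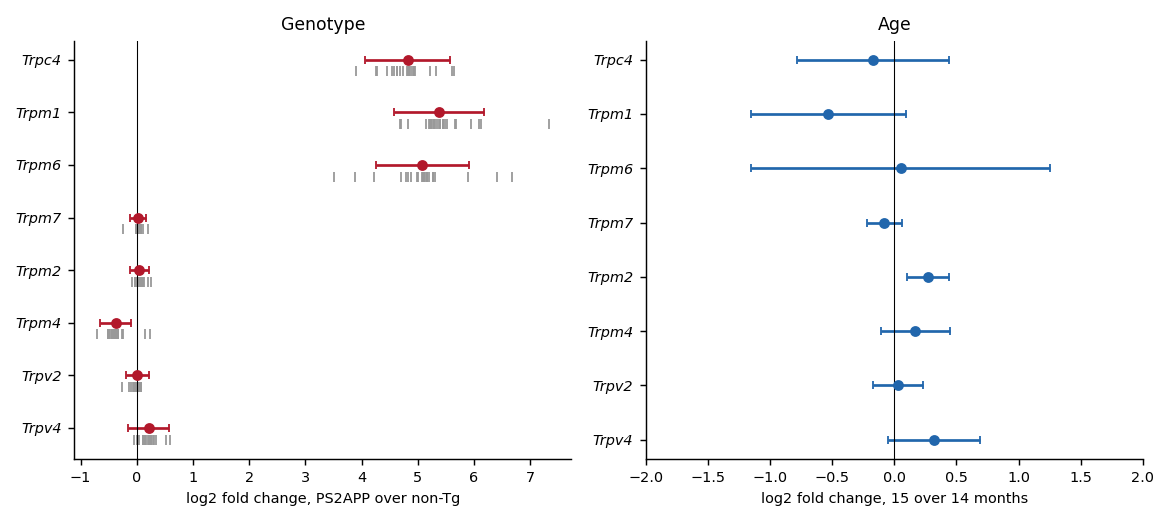
Log2 fold change of the 8 tested members for PS2APP over non-Tg (left) and for 15 over 14 months (right), as points with bars of 1 SE, and gray ticks on the left for the values under the alternative count-based fits. Trpc4, Trpm1 and Trpm6 lie at 4.82, 5.37 and 5.08 for genotype and near 0 for age, within the wide errors of their low counts.

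Of 18 other TRP channel genes, 4 had enough reads to be tested in the main fit and 0 of these 4 were called, beside 1.18% of all tested genes. Pkd2, the polycystin channel of cilia and endoplasmic reticulum, averaged 61.3 ± 18.0 CPM in PS2APP and 54.6 ± 15.6 CPM in non-Tg (SD, n = 9 and 6), which gave 0.22 ± 0.22 on the log2 scale (SE, edgeR adjusted p = 0.768). Mcoln1, the lysosomal calcium release channel, averaged 38.2 ± 10.1 CPM in PS2APP and 35.2 ± 12.9 CPM in non-Tg, which gave 0.13 ± 0.23 on that scale (SE, edgeR adjusted p = 0.888). Pkd2l2 was at 0.34 ± 0.25 (SE, edgeR adjusted p = 0.659) and shares its locus with Fam13b, which had 10690 reads. Trpm3, the fourth tested gene, had -1.21 ± 0.66 (SE, edgeR adjusted p = 0.491). Trpm8, Trpv1, Trpv5 and Trpa1 had no read in any library, and the other 10 had reads but did not pass the filter.

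Among those 10, the lysosomal channel genes Mcoln3 and Mcoln2 are named after their values were seen. Mcoln3 had 83 reads in PS2APP, in 8 of 9 libraries, and 2 reads in non-Tg, both in library 13. By library it had 7, 2, 30 and 9 reads at 14 months and 0, 3, 3, 18 and 11 reads at 15 months in PS2APP. PS2APP library 1 had no read, so the groups overlapped. The ratio of summed reads per total read was 31.9, with a 95% counting interval of 8.57 to 268. In the fit with no filter on low counts, Mcoln3 was at 4.69 ± 1.21 on the log2 scale and Mcoln2 at 2.13 ± 1.46 (SE). Because both genes were picked on their values in this contrast, these are descriptions with no test. Mcoln2 had 29 reads in PS2APP, 20 of them in library 8, and 2 in non-Tg. Per total read this was 11.2 to 1 (95% counting interval 2.82 to 96.5). Others of the 10 went the other way per total read. Trpv6 was at 0.277 (9 against 25 reads, 0.114 to 0.614), with 21 reads in non-Tg library 9. Trpm5 was at 0.257 (5 against 15 reads, 0.0729 to 0.742), with 15 reads in non-Tg library 13. Trpc2 was higher in PS2APP, at 2.28 (71 against 24 reads, 1.42 to 3.78). No direction is read from counts this low. Wdr63 overlaps Mcoln3 on the other strand and had 10 reads in all.

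The genes around these channels were taken as 7 lists of signalling and transport genes, of which 113 of 126 were tested and 2 were called for genotype, or 1.77%, beside 1.18% of all tested genes. The neuron markers were lower in PS2APP, as given above, and several genes of these lists are also used by neurons. For each gene named from the lists the value with the neuron marker score as a covariate is therefore given. Every adjusted p in that fit was 1.0 for these genes. The score differs between the genotypes, so the fit cannot tell neuron content and genotype apart. Over all 13994 genes, 533 had an unadjusted p under 0.05 in it, where 1635 did in the main fit. A changed value or lost call in it was not tested for its cause. Among the genes of phospholipase C and Gq signalling, which lead to Trpc opening, 0 of 23 rose and 1 fell, with a median log2 fold change of 0.06. Prkca, protein kinase C alpha, averaged 118 ± 21.0 CPM in PS2APP and 178 ± 24.0 CPM in non-Tg (SD, n = 9 and 6). Its log2 fold change was -0.60 ± 0.15 (SE, edgeR adjusted p = 0.0459), and it was below the non-Tg median in 9 of 9 PS2APP libraries. The call was lost in 19 of 28 alternatives, with adjusted p-values from 0.00874 to 1.0, including leaving out any 1 of 12 libraries, while the log2 fold change stayed between -0.69 and -0.50, and was -0.51 with the neuron covariate.

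In the list of store-operated calcium entry and endoplasmic reticulum release, 0 of 19 were called, and the median log2 fold change was -0.14. Itpr1, an IP3 receptor, had -0.64 ± 0.21 (SE, edgeR adjusted p = 0.187), or -0.32 with the neuron covariate, and Saraf, a regulator of store-operated entry, -0.42 ± 0.19 (SE, edgeR adjusted p = 0.398), or -0.65 with it. Of ADP-ribose metabolism, which makes and removes the Trpm2 ligand, 0 of 13 were called, with a median of 0.01. Nampt, the rate-limiting enzyme of NAD salvage, averaged 95.3 ± 18.8 CPM in PS2APP and 60.5 ± 21.0 CPM in non-Tg (SD, n = 9 and 6) and was above the non-Tg median in 9 of 9 PS2APP libraries. Its log2 fold change was 0.65 ± 0.17 (SE, edgeR adjusted p = 0.0723), and it was called in 5 of 28 alternatives, with adjusted p-values from 0.0179 to 1.0. With the neuron covariate it was 0.36. The 5 included leaving out PS2APP library 4, at an adjusted p of 0.0196, or non-Tg library 13, at 0.0445. Nudt5, an ADP-sugar hydrolase, had -0.49 ± 0.21 (SE, edgeR adjusted p = 0.357), or -0.36 with the neuron covariate.

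Of the calmodulin, calcineurin and NFAT genes, which carry calcium signals onward, 0 of 19 were called, and the median was -0.12. Camk4, a calcium/calmodulin-dependent kinase, had -1.52 ± 0.47 (SE, edgeR adjusted p = 0.145), or -0.13 with the neuron covariate, and DESeq2 called it (adjusted p = 0.0326), 1 of 28 alternatives, with adjusted p-values from 0.0326 to 1.0. Calm2, a calmodulin gene, had -0.46 ± 0.22 (SE, edgeR adjusted p = 0.412), or -0.16 with the covariate. Of the magnesium transport genes, which act beside Trpm6 and Trpm7, 0 of 13 were called, with a median of -0.05. Magt1 had -0.22 ± 0.16 (SE, edgeR adjusted p = 0.647), or -0.26 with the neuron covariate, and Cnnm1 -1.14 ± 0.84 (SE, edgeR adjusted p = 0.649), or 0.28 with it. Of the calcium extrusion genes, 0 of 11 were called, with a median of -0.30. Slc24a5, a sodium/calcium exchanger of intracellular membranes known from pigment cells, averaged 34.7 ± 23.5 CPM in PS2APP and 14.9 ± 5.67 CPM in non-Tg, which gave 1.18 ± 0.38 on the log2 scale (SE, edgeR adjusted p = 0.173). It was 0.13 at 14 months alone, 1.90 at 15 months alone and 1.37 with the neuron covariate. It was called in 2 of 28 alternatives, with no filter (adjusted p = 0.00257) and by DESeq2 (0.0472), with adjusted p-values up to 1.0 in the others, and the interaction was 1.81 ± 0.65 (SE, edgeR adjusted p = 0.641). Slc24a2, an exchanger of neurons, had -1.46 ± 0.51 (SE, edgeR adjusted p = 0.209), or 0.84 with the neuron covariate. It was called in 2 of 28 alternatives, with no filter (-1.45, adjusted p = 0.00681) and at 15 months alone (-2.08, adjusted p = 0.0334), beside -0.21 at 14 months alone (adjusted p = 0.963).

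Among 15 other tested genes of calcium and cation channels and their subunits, 1 rose and 0 fell, with a median of 0.08. Cacna1a, the pore subunit of P/Q-type voltage-gated calcium channels, averaged 55.7 ± 16.9 CPM in PS2APP and 24.6 ± 5.78 CPM in non-Tg (SD, n = 9 and 6). Its log2 fold change was 1.21 ± 0.22 (SE, edgeR adjusted p = 0.0044), and it was above the non-Tg median in 9 of 9 PS2APP libraries. The call was lost in 4 of 28 alternatives, whose adjusted p-values ran from 1.07e-05 to 1.0. These were 14 months alone (adjusted p = 0.0981), 15 months alone (0.143), the neuron covariate (1.0) and leaving out the 3 libraries low in Xist (0.0775), with log2 fold changes of 1.36, 1.14, 0.99 and 1.18. The values of Prkca, Nampt and Cacna1a overlapped between the genotypes. Itpr1, Camk4 and Slc24a2 were also below the non-Tg median in 9 of 9 PS2APP libraries, and Slc24a5 was above it in 9 of 9. None of them was called in the main fit, and the share of all tested genes with such counts was not taken.

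**Figure D4:**
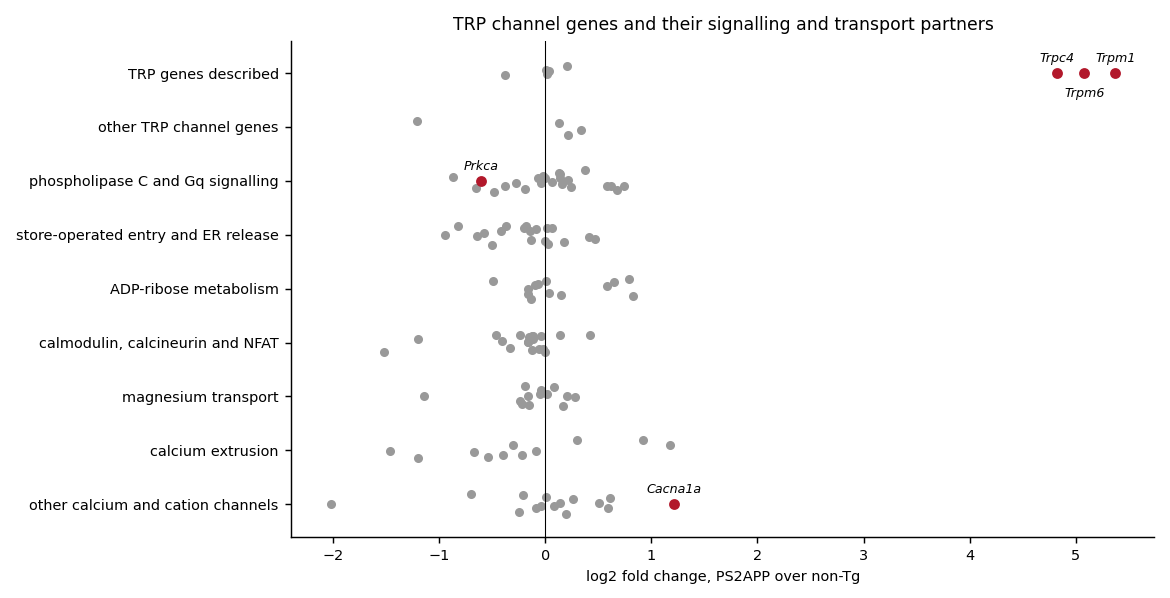
Log2 fold change, PS2APP over non-Tg, of each tested gene of the TRP list and of the 8 lists of other TRP channel genes and partners, with 1 point for each gene, rows offset at random in height, and genes with an edgeR adjusted p under 0.05 in red with their names. Prkca at -0.60 and Cacna1a at 1.21 are the 2 called partner genes, and Trpc4, Trpm1 and Trpm6 lie to the right of every partner gene.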

How the data were processed

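RNA from sorted microglia was sequenced in 15 libraries. Per the submitters' processing notes, the aligner was GSNAP and the build GRCm38. The sources used here do not give the kit, counter or strand. The authors deposited raw counts of uniquely aligning reads per NCBI Gene ID, per the file headers, and RPKM adjusted by a size factor of each sample (nRPKM), per the file headers. Groups and ages came from the labels. Members and lists were chosen with earlier results of these data known.

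Counts were filtered by filterByExpr, scaled by TMM and fitted with edgeR 4.0.16 (R 4.3.3, quasi-likelihood, Benjamini-Hochberg over 13994 genes, threshold 0.05), with genotype and age in the model, and their product for the interaction. Alternatives used limma 3.58.1 and DESeq2 1.42.0, and other filters, scalings, subsets and covariates. On simulated data the genotype test found 31% of 2-fold and 75% of 4-fold changes, with 5.36% of its calls false, and the age test 41% and 72%, with 5.04% false. Replicates were distinct libraries (chi-square per degree of freedom 10.6 to 75.6 over 51 pairs). CPM is the read count scaled to the TMM-adjusted library size. Exact permutations used 362880 orders (scipy 1.17.1). Symbols came from RefSeq for 31049 of 36528 IDs. Named were all members, other TRP genes and list genes called for genotype (else the 3 with most reads, or up to 2 with the smallest adjusted p in a list) and the 3 genes most like each member with at least 20 reads on average in PS2APP, of which 1 is not reported here. Counting intervals cover counting error only.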

Additional observations from a re-analysis of the deposited data

Results flagged for a closer look

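Of 26 groups of libraries looked at over 13 genes, 3 held a library far from the rest of its group. The rule flags about 1 in 20 groups when values are normally distributed. Values from counts this low are not, so no excess of flags is read from the 3. Trpm6 was at 0.543 nRPKM in PS2APP library 1, while the other 8 PS2APP libraries were at 0.0482 to 0.275 nRPKM. Trpc1 was at 0.266 nRPKM in non-Tg library 12, while the other 5 non-Tg libraries were at 0 to 0.0648 nRPKM. Trpc6 was at 0.0635 nRPKM in non-Tg library 9, while the other 5 non-Tg libraries were at 0 to 0.0166 nRPKM. Trpc1 and Trpc6 rest on 30 and 10 reads in these libraries.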

How the results depend on the processing

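The count of genes called for genotype, 165, was 648 with no filter on low counts, 390 by DESeq2, 50 at 14 months alone, 65 at 15 months alone, 17 with the neuron marker score as a covariate and 81 without the 3 libraries low in Xist, and 118 to 188 when 1 library was left out. For age, with 0 genes called, DESeq2 called 12, and 1 was called without the 4 libraries in which immediate early genes stood apart, and 0 to 0 when 1 library was left out. For the interaction, with 0 called, DESeq2 called 6, and leaving out 1 library gave 0 to 3, with 3 without non-Tg library 5. The cause of these changes was not tested. The subsets also held fewer samples, and the effect of that was not tested either. The sign of the Trpc4, Trpm1 and Trpm6 log2 fold changes for genotype was positive in all 28 alternatives. Their PS2APP and non-Tg values did not overlap, so leaving out libraries or rescaling could not turn the sign. Nothing is read from its constancy. On log2(nRPKM + 1) the log2 fold changes of Trpc4, Trpm1 and Trpm6 were 0.45, 0.21 and 0.24. On log2(nRPKM + 0.1) they were 2.02, 1.27 and 1.34, a scale that understates changes of genes this low. No paired analysis was possible because the library numbers are not shared between the genotypes. The read ratios of Trpc1 and Trpc6, 0.953 and 1.15, ran from 0.749 to 2.81 and from 0.834 to 2.42 when 1 library was left out, an alternative added after the data were seen, with the highest without non-Tg library 12 for Trpc1 and library 9 for Trpc6.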
